A study of Homo sapiens with 28 samples.

Results

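Kelly cells transfected with a mimic of miR-380-3p were compared directly with Kelly cells transfected with a mimic of miR-100-3p. The 8 libraries were chosen by their sample labels, 4 for each mimic, out of 28 libraries in the series. Kelly is an established human neuroblastoma line with an amplified MYCN gene, and every library comes from this 1 line. Both groups received 25 nM of a synthetic microRNA for 48 h, and bulk RNA was then sequenced. A scrambled RNA without intended targets, given to 4 further libraries at the same dose and time, serves here only as a level beside the values, with no test against it. By their labels the groups differ only in the mimic. A difference between them can come from either one, and the control level is printed so that the distance of each group from it can be read. Whether the 4 libraries per mimic are separate cultures is not stated in the labels, and the p-values measure only the spread between them, which may be technical.

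A microRNA is a short RNA that guides an Argonaute protein to messenger RNAs, chiefly by pairing of its seed, bases 2 to 8 from its 5′ end, with a matching site in the 3′ untranslated region (UTR). Bound messengers are destabilised and translated less. The hairpin of miR-380 lies in the large imprinted microRNA cluster of 14q32, which also holds DLK1, MEG3 and RTL1. The hairpin of miR-100 lies in the MIR100HG host locus on chromosome 11, and its 5p arm is the arm usually studied, while the 3p arm used here is the opposite strand of that hairpin.

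The mature sequences of both mimics decide which messengers each can pair with, and they are shown 5′ to 3′ from RefSeq (GRCh38.p14), with the seed in capitals.
hsa-miR-380-3p, chr14:101025056-101025077, plus strand: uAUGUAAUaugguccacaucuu
hsa-miR-100-3p, chr11:122152240-122152261, minus strand: cAAGCUUGuaucuauagguaug
The mimics carry the same base at 6 of 22 positions and at 2 of the 7 seed positions. No other mature human microRNA in the RefSeq table has either seed. The seed of miR-380-3p holds 1 G or C and that of miR-100-3p holds 3.

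A messenger was said to carry a site where its longest 3′ UTR contained ATTACAT (miR-380-3p) or CAAGCTT (miR-100-3p) on the sense strand. The 2 motifs share no 6-base stretch. Of 16116 UTRs in the count table, 2240 held ATTACAT and 1561 held CAAGCTT. The sites below are examples from messengers that were called lower with the matching mimic. Sites of genes that differed the other way, such as FZD5 and NEDD9, are not printed, nor is the miR-100-3p site of RAB21. Each printed site is given with its flanks as 30 bases of the messenger strand, with the site in capitals and GRCh38 coordinates of the site.
IGF2, 3′ UTR, chr11:2130678-2130684, minus strand, miR-380-3p site: agacttgcagaATTACATagagaaattagg
RAB21, 3′ UTR, chr12:71786549-71786555, plus strand, miR-380-3p site: atacattgtaaATTACATattaaatatttt
PPIL3, 3′ UTR, chr2:200871078-200871084, minus strand, miR-380-3p site: tgagtggcctgATTACATattcctcccaca
UBR7, 3′ UTR, chr14:93229157-93229163, plus strand, miR-380-3p site: ctggacttataATTACATacttaactctga
PDK1, 3′ UTR, chr2:172598392-172598398, plus strand, miR-380-3p site: atggacagaatATTACATacaaaaatattc
VAMP3, 3′ UTR, chr1:7779719-7779725, plus strand, miR-100-3p site: tgctatattatCAAGCTTacctactgttat
SKP2, 3′ UTR, chr5:36182359-36182365, plus strand, miR-100-3p site: ctattcagaatCAAGCTTaaaaattaccac
RBX1, 3′ UTR, chr22:40972506-40972512, plus strand, miR-100-3p site: acttcttccatCAAGCTTaattgttttgtt
CNRIP1, 3′ UTR, chr2:68316460-68316466, minus strand, miR-100-3p site: aggtgatgaagCAAGCTTgctaaagcacag
In all of these but CNRIP1 the site is followed by an A, which makes it an 8-base site.

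The 8 libraries held 11477481 to 21120611 expected counts. Neuroblastoma genes were present in every library: GATA3 ranged from 200.3 to 374 counts per 1e6 (CPM) and HAND2 from 622 to 895 CPM. Defining markers of fibroblasts, epithelium and glia (DCN, COL1A2, KRT18 and S100B) were at 0 in all 8. The summed level of all 22 measured markers of other cell types was 18.5 to 22.0 CPM with miR-380-3p, 15.2 to 18.9 CPM with miR-100-3p and 17.0 to 18.9 CPM in the controls. The share of mitochondrially encoded messengers was 9.09% to 13.6% with miR-380-3p and 8.06% to 13.4% with miR-100-3p. Libraries also differed in how counts depended on the GC content of the gene, with a slope of -0.89 to 1.68 in the miR-380-3p group and -1.55 to 1.75 in the miR-100-3p group. The first principal component held 34.4% of the variance and separated the groups, and the next, with 25.4%, ordered libraries within them.

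Of 14275 genes tested, 1618 (11.3%) were called at an adjusted p under 0.05 by edgeR's quasi-likelihood test with Benjamini-Hochberg adjustment. Of these, 758 (5.31%) were higher and 860 (6.02%) lower with miR-380-3p than with miR-100-3p. Most differences were small: the median size among called genes was 0.55 on the log2 scale, and 117 (0.82%) were at least 2-fold higher and 122 (0.855%) at least 2-fold lower. The 4 libraries of one mimic lay entirely above the 4 of the other for 2615 genes (18.3% of those tested), among them 1546 of the 1618 called. Leaving out miR-380-3p replicate 3 lowered the calls to 842, of which 832 were also called with all 8 libraries. With miR-100-3p replicate 2 left out there were 1034 calls. The number of calls thus depended on single libraries.

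**Figure D1:**
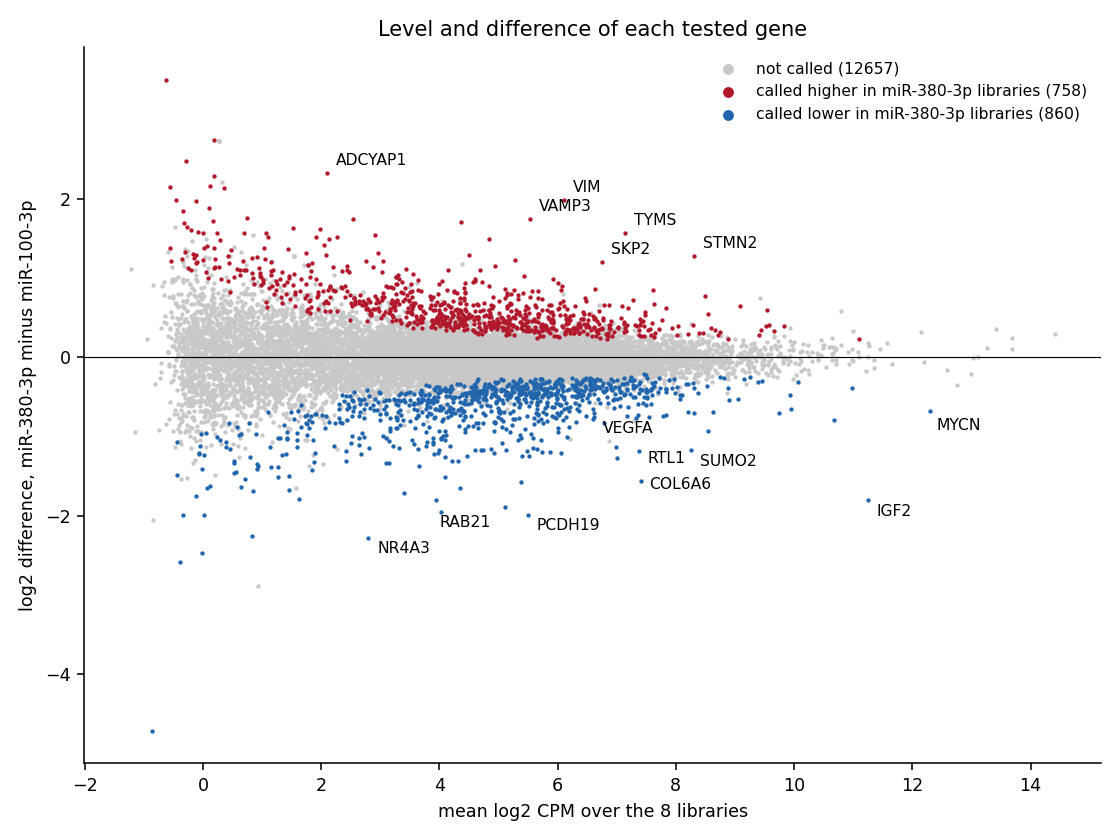
Each point is 1 of the 14275 genes tested, with its mean log2 CPM over the 8 libraries on the x axis and its log2 difference, miR-380-3p minus miR-100-3p, on the y axis; red and blue points are the 758 genes called higher and the 860 called lower with miR-380-3p. VIM, ADCYAP1 and VAMP3 stand high above 0, and IGF2 and MYCN are the lower genes with the highest levels among those labelled.

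Genes with a seed site for a mimic were called lower with that mimic more often than genes without one. Among 1857 tested genes with a miR-380-3p site, 295 (15.9%) were lower with miR-380-3p, against 4.89% of the genes without such a site. Only 94 of them (5.06%) were higher with miR-380-3p, against 5.89% without a site. Among 1295 tested genes with a miR-100-3p site, 161 (12.4%) were higher with miR-380-3p, which is to say lower with miR-100-3p, against 4.97% without a site. In the other direction stood 90 (6.95%), against 6.51% without a site. Seen from the called genes, 36.7% of those lower with miR-380-3p carried its site and 13.7% of the genes not called did. Of those lower with miR-100-3p, 22.8% carried the miR-100-3p site and 9.72% of the genes not called did.

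The share called lower with the matching mimic broadly followed the length of the match. For miR-380-3p it was 23.7% of 575 genes whose best site had 8 bases, 12.4% of 1282 with a 7-base match to the seed, 10.0% with a 6-base match followed by an A, 5.96% with a 6-base match and 3.91% with none. For miR-100-3p the same classes gave 20.6% of 247 genes, 10.5%, 11.3%, 6.37% and 3.70%. The 7-base match to the miR-100-3p seed and the shorter match followed by an A therefore lay close together. In the opposite direction the same classes gave 3.83%, 5.62%, 8.11%, 7.01% and 5.29% for miR-380-3p. For miR-100-3p they gave 7.69%, 6.77%, 8.02%, 7.62% and 5.94%. With only a 6-base match the opposite direction was thus the more frequent for both mimics. Median UTR length fell along the classes, from 3618 to 888 bases for miR-380-3p and from 3548 to 919 for miR-100-3p. Genes with 1 miR-380-3p site were lower in 13.8% of cases, with 2 sites in 22.2% and with 3 or more in 24.8%. For miR-100-3p no such order was seen: 12.5% with 1 site, 12.7% with 2 and 1 of the 17 genes with 3 or more. Genes with a site in the coding sequence but not in the UTR reached 7.26% for miR-380-3p and 7.49% for miR-100-3p.

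Genes with a site have longer UTRs, with a median of 3411 bases for miR-380-3p and 3286 for miR-100-3p, against 1233 and 1318.5 without the site. When the genes were divided by UTR length into 4 equal bins, the share called within each bin remained higher with a site. In the shortest bin, 50 to 629 bases, it was 16.7% with a miR-380-3p site and 3.07% without. In the longest, 2854 to 32870 bases, it was 15.4% and 6.95%. For miR-100-3p the same bins gave 12.3% and 3.23%, then 10.8% and 6.03%. With 4 equal bins by base composition, the bin of UTRs poorest in A and T had 5.85% of miR-100-3p site genes called lower with miR-100-3p (2.80% without a site), and the richest had 19.1% (5.75%). For miR-380-3p the poorest and richest bins gave 10.4% (3.55%) and 17.4% (4.88%). Among genes with exactly 1 site, an A followed the site in 40.6% of those lower with miR-380-3p and in 21.8% of those not called, and for miR-100-3p in 31.5% and 16.1%.

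Carrying both sites gave values between those of either site alone. Of 367 such genes, 13.4% were lower and 8.72% higher with miR-380-3p. Of 1490 with only a miR-380-3p site, 16.5% were lower and 4.16% higher, and of 928 with only a miR-100-3p site, 4.42% were lower and 13.9% higher. The 9468 genes with neither site stood at 4.93% and 5.10%. Sites for the opposite arm of each hairpin, which the mimics are not meant to supply, were also counted. Of 548 genes with a miR-380-5p site, 7.12% were lower and 8.58% higher with miR-380-3p, against 6.53% and 5.63% without. Of 156 with a miR-100-5p site, 10.3% were lower and 9.62% higher with miR-100-3p, against 5.70% and 6.51% without.

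**Figure D2:**
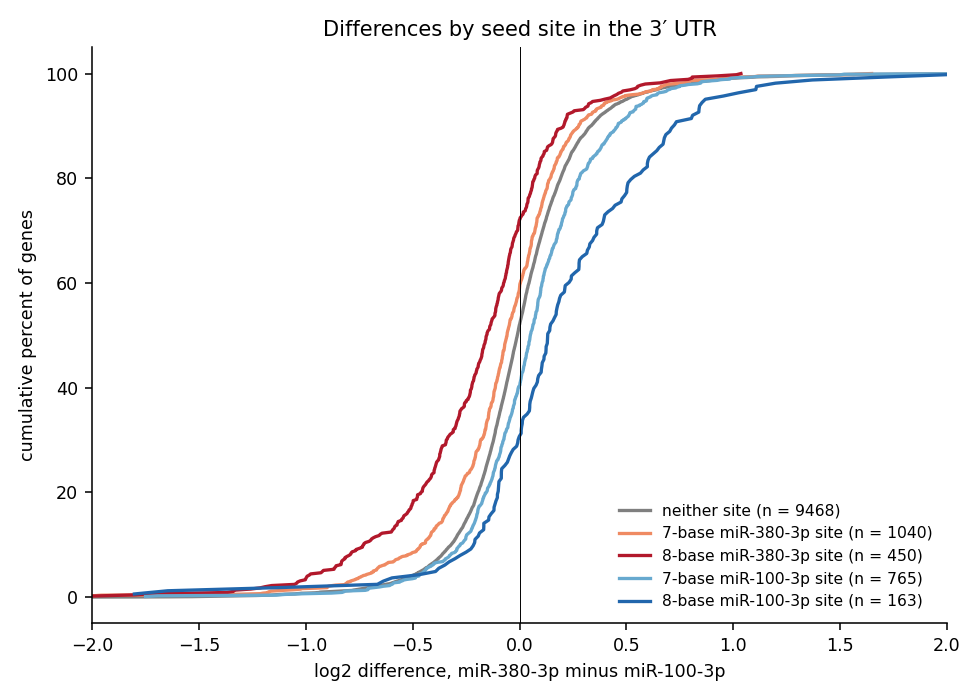
Cumulative percent of genes (y axis) against the log2 difference, miR-380-3p minus miR-100-3p (x axis), for genes with an 8-base or only a 7-base site for 1 mimic and none for the other, and for the 9468 genes with neither. The curve of the 450 genes with an 8-base miR-380-3p site lies to the left of the others (median -0.15) and that of the 163 genes with an 8-base miR-100-3p site to the right (median 0.13).

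Over whole site classes the groups were shifted, but their libraries overlapped. For the 450 genes with an 8-base miR-380-3p site, the median deviation relative to genes with neither site was 0.01, -0.20, -0.10 and -0.03 on the log2 scale in miR-380-3p replicates 1 to 4. In miR-100-3p replicates 1 to 4 it was 0.03, 0.16, 0.20 and -0.04. The groups overlap, because miR-100-3p replicate 4 lies below miR-380-3p replicates 1 and 4. For the 163 genes with an 8-base miR-100-3p site the medians were 0.15, -0.01, 0.09 and 0.10 with miR-380-3p and -0.10, 0.01, -0.05 and -0.19 with miR-100-3p. Here miR-100-3p replicate 2 lies above miR-380-3p replicate 2. The lowest library of each group, miR-380-3p replicate 2 and miR-100-3p replicate 4, also has the steepest GC slope of its group, 1.68 and 1.75. With the GC slope as a covariate, 23.0% of genes with a miR-380-3p site were lower with miR-380-3p against 10.9% without, and 20.7% with a miR-100-3p site were lower with miR-100-3p against 10.6%. Among the fits with 1 library left out, the lowest shares came without miR-380-3p replicate 3, 9.50% against 2.32% for miR-380-3p and 8.02% against 2.42% for miR-100-3p.

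**Figure D3:**
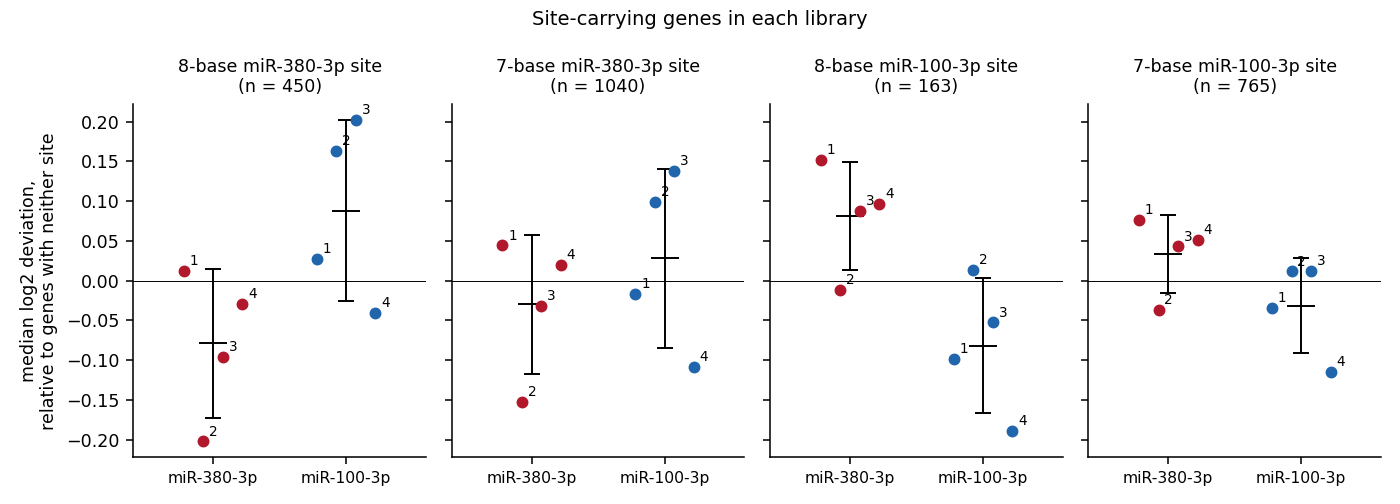
Each point is the median log2 deviation of a site class in 1 library, relative to genes with neither site (y axis), with the replicate number beside it; bars give the mean ± SD of 4 libraries. Genes with an 8-base miR-380-3p site average -0.08 ± 0.09 with miR-380-3p and 0.09 ± 0.11 with miR-100-3p, and the libraries of the 2 groups overlap in all 4 panels.

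The position of the control level was also compared between site classes. Of 246 genes that were lower with miR-380-3p and carried only its site, the control mean lay nearer the miR-100-3p group in 80.9%, against 63.2% of the 467 lower genes with neither site. Of 129 genes that were lower with miR-100-3p and carried only its site, the control mean lay nearer the miR-380-3p group in 58.9%, against 37.7% of the 483 genes with neither site called in that direction. Genes with only the other mimic's site lay between these shares. The control mean lay nearer the miR-100-3p group in 73.2% of 41 genes lower with miR-380-3p that carried only a miR-100-3p site. It lay nearer the miR-380-3p group in 51.6% of 62 genes lower with miR-100-3p that carried only a miR-380-3p site. The contrast was therefore only partly particular to the matching site. These are positions of means, with no test.

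Insulin-like growth factor 2 (IGF2, chr11:2129112-2149603), an imprinted fetal growth factor, was the most abundant messenger among the 15 largest differences in the lower direction. It measured 1394, 1704, 1048 and 1162 CPM in the miR-380-3p libraries and 3666, 4513, 6017 and 4238 CPM in the miR-100-3p libraries. Every miR-380-3p library lay below every miR-100-3p library, and the controls stood at 4697 to 5292 CPM. The log2 difference was -1.80 ± 0.18 (SE), adjusted p = 0.000197. The UTR holds the 8-base miR-380-3p site printed above, and reads from a read-through transcript with the neighbouring insulin gene could be counted here.

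RAB21, a small GTPase of early endosomes and integrin traffic, measured 21.0, 21.6, 14.1 and 15.0 CPM with miR-380-3p and 62.1, 72.0, 66.7 and 64.7 CPM with miR-100-3p. The controls, at 51.3 to 59.8 CPM, lay near the miR-100-3p libraries. Its log2 difference was -1.90 ± 0.14, adjusted p = 4.72e-05, and its long UTR holds 2 sites for miR-380-3p and 1 for miR-100-3p. PPIL3, a cyclophilin-type prolyl isomerase of the spliceosome, measured 6.07, 5.29, 5.04 and 6.77 CPM against 16.6, 19.7, 22.2 and 17.7 CPM. Both groups were tight and apart, the controls matched miR-100-3p at 18.0 to 19.9 CPM, and the log2 difference was -1.72 ± 0.14, adjusted p = 7.49e-05. UBR7, an E3 ubiquitin ligase that acts on histone H2B, measured 34.6, 36.7, 28.5 and 35.3 CPM against 73.5, 81.3, 77.6 and 68.4 CPM. The controls were again at the miR-100-3p level, 77.5 to 81.5 CPM, and the difference was -1.16 ± 0.10, adjusted p = 8.29e-05.

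Other messengers with a miR-380-3p site covered metabolism, signalling and membrane biology. PDK1, the kinase that holds pyruvate dehydrogenase inactive, measured 37.9, 28.7, 25.5 and 26.8 CPM with miR-380-3p and 64.2, 76.2, 70.0 and 59.6 CPM with miR-100-3p. The groups do not overlap, with a log2 difference of -1.19 ± 0.13 (adjusted p = 0.000368). SUMO2, a small ubiquitin-like modifier, was at 204, 236, 174 and 204 CPM against 409, 449.6, 538 and 439.7 CPM, a difference of -1.17 ± 0.11 (adjusted p = 0.000171). SUMO2 has near-identical pseudogene copies, between which the counting could split reads. The receptor TGFBR1, which transmits TGF-beta signals and carries 4 miR-380-3p sites and 1 miR-100-3p site, was at 14.1, 8.93, 7.38 and 9.39 CPM against 21.0, 21.4, 16.0 and 17.2 CPM. The controls, at 27.1 to 32.9 CPM, lay above both groups, and the difference was -0.94 ± 0.19 (adjusted p = 0.0079). TMEM30A, the chaperone subunit of phospholipid flippases, carries 1 site for each mimic and showed the same order. It was at 31.0, 20.3, 18.1 and 22.9 CPM with miR-380-3p, 51.0, 52.8, 46.0 and 45.2 CPM with miR-100-3p and 65.0 to 79.9 CPM in the controls (-1.09 ± 0.15, adjusted p = 0.00105).

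For 3 further messengers with miR-380-3p sites the control mean lay between the groups. NR4A3, an orphan nuclear receptor and immediate-early gene, had the largest difference in the lower direction once genes with a mean log2 CPM under 2 were set aside. It measured 3.21, 2.22, 3.14 and 3.91 CPM with miR-380-3p and 13.3, 13.4, 18.9 and 15.2 CPM with miR-100-3p. The controls, at 5.46 to 7.99 CPM, lay between the groups, and the log2 difference was -2.28 ± 0.18 (adjusted p = 7.49e-05). The cystine importer SLC7A11, with 3 sites, was at 9.70, 6.29, 7.50 and 7.70 CPM against 19.5, 22.2, 19.6 and 18.9 CPM, with controls at 8.48 to 13.6 CPM that overlap the miR-380-3p libraries. Its difference was -1.37 ± 0.13 (adjusted p = 0.000184). The cell adhesion protein PCDH19, a protocadherin of the nervous system with 2 sites, was at 31.6, 24.2, 17.2 and 18.7 CPM against 93.1, 96.1, 92.6 and 79.1 CPM. Its controls lay between, at 57.5 to 74.9 CPM, and the difference was -1.99 ± 0.17 (adjusted p = 8.92e-05).

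Turning to the messengers with a miR-100-3p site, the v-SNARE VAMP3 (chr1:7771269-7781432), which serves fusion of recycling endosomes, had the smallest adjusted p of this class. It measured 80.9, 80.7, 86.2 and 90.0 CPM with miR-380-3p and 25.7, 27.8, 23.8 and 23.2 CPM with miR-100-3p. The spread within each group was far smaller than the gap, and the controls lay near miR-380-3p at 66.0 to 80.1 CPM. The log2 difference was 1.74 ± 0.08 (adjusted p = 2.04e-06).

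Both the substrate receptor and the RING subunit of the SCF ubiquitin ligase carry a miR-100-3p site. SKP2, the F-box protein that marks the cell cycle inhibitor p27 for degradation, was at 164, 149, 165 and 174 CPM with miR-380-3p and 74.6, 79.7, 67.5 and 61.8 CPM with miR-100-3p. RBX1, which recruits the E2 enzyme, was at 46.3, 48.2, 44.1 and 48.2 CPM against 27.5, 26.6, 25.1 and 26.9 CPM. For both genes the groups do not overlap. The log2 difference was 1.20 ± 0.09 for SKP2 (adjusted p = 4.72e-05) and 0.81 ± 0.08 for RBX1 (adjusted p = 0.00018). The controls were at 148 to 167 CPM for SKP2 and at 51.2 to 57.8 CPM for RBX1, near the miR-380-3p libraries.

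The cannabinoid receptor interacting protein CNRIP1 and the ribosomal S6 kinase RPS6KA2, a kinase downstream of ERK, showed the same order. CNRIP1 was at 44.5, 53.1, 45.7 and 49.8 CPM with miR-380-3p, 17.5, 19.7, 14.7 and 16.3 CPM with miR-100-3p and 44.1 to 49.5 CPM in the controls (1.50 ± 0.11, adjusted p = 4.19e-05). RPS6KA2 was at 36.9, 31.0, 35.0 and 38.7 CPM, 14.7, 17.3, 11.6 and 13.9 CPM and 38.4 to 44.0 CPM (1.29 ± 0.12, adjusted p = 0.00018). SOCS2, a suppressor of cytokine signalling with an 8-base miR-100-3p site, was different: it was at 24.5, 24.5, 25.3 and 26.9 CPM with miR-380-3p and 14.3, 15.4, 13.7 and 13.1 CPM with miR-100-3p. Its controls, at 10.5 to 14.2 CPM, lay with the miR-100-3p libraries (0.84 ± 0.09, adjusted p = 0.000358). Having a site did not fix the direction. The Wnt receptor FZD5 and the focal adhesion scaffold NEDD9 each carry an 8-base miR-100-3p site, yet were higher with miR-100-3p. FZD5 was at 9.27 to 14.2 CPM with miR-380-3p, 32.3 to 39.4 CPM with miR-100-3p and 16.0 to 17.6 CPM in the controls (-1.65 ± 0.14, adjusted p = 0.0001). NEDD9 was at 6.09 to 10.6 CPM, 27.0 to 30.1 CPM and 12.9 to 21.6 CPM (-1.80 ± 0.16, adjusted p = 0.000133).

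**Figure D4:**
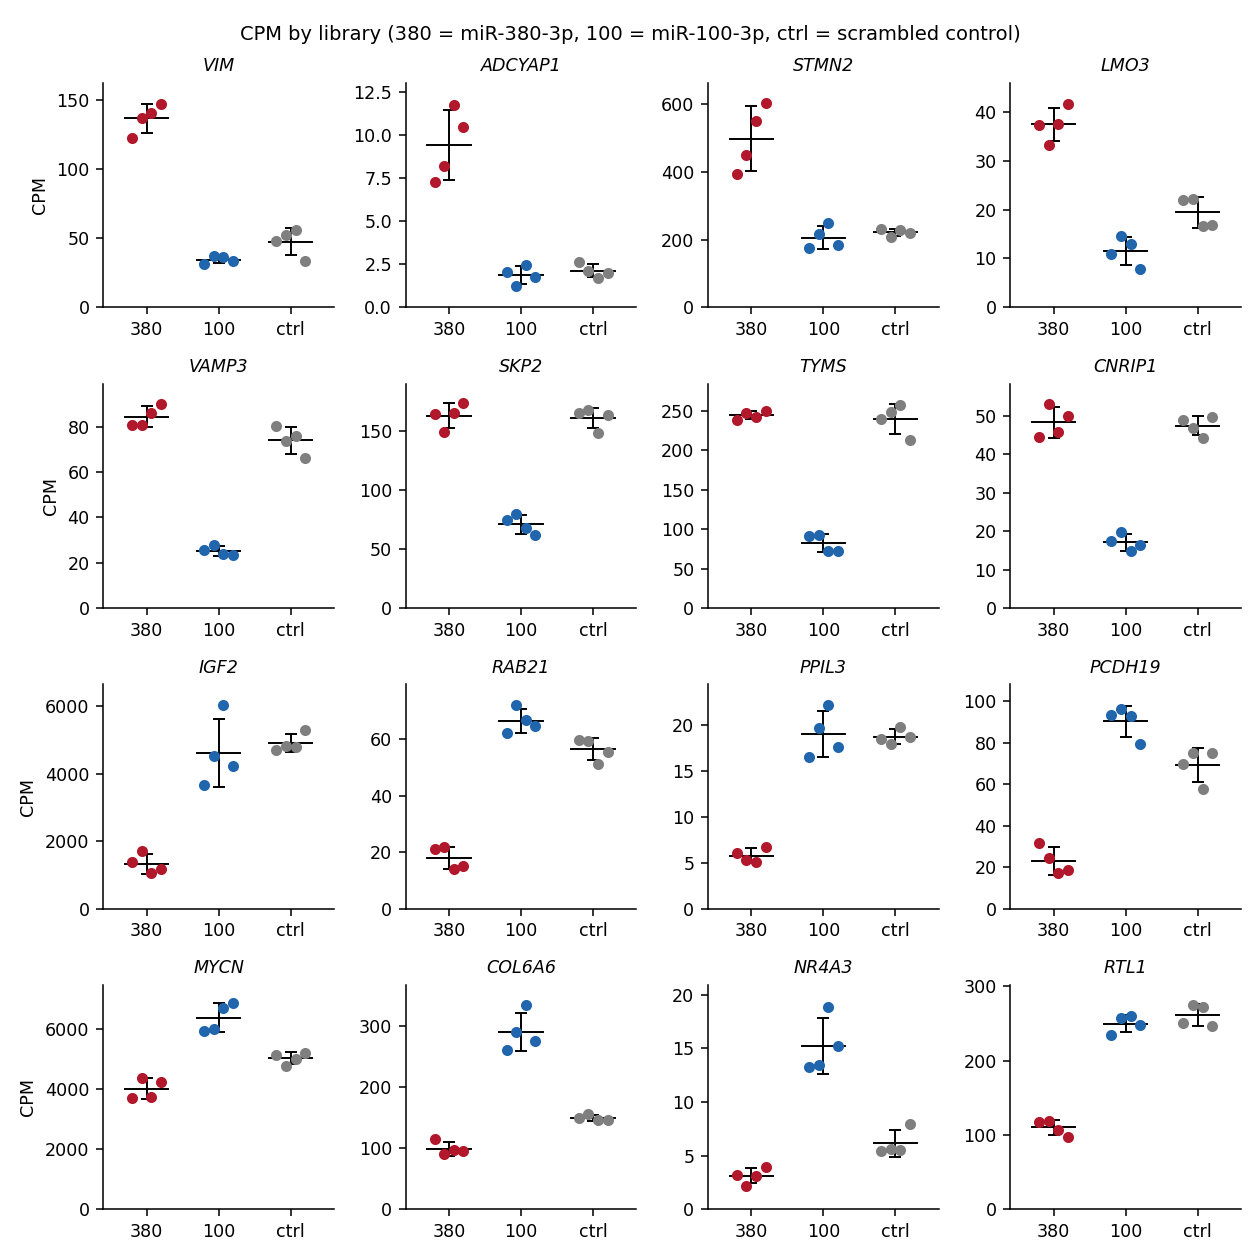
CPM (y axis, from 0) of 16 genes in the 4 miR-380-3p, 4 miR-100-3p and 4 scrambled control libraries; points are libraries and bars the mean ± SD. No gene shown has overlapping miR-380-3p and miR-100-3p libraries, and the controls lie near one group for TYMS, SKP2, IGF2 and PPIL3 and between the groups for MYCN and NR4A3.

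Many of the largest differences were in messengers without a 7-base site for either mimic in the UTR examined. Thymidylate synthase (TYMS, chr18:657604-673578), which makes the thymidylate needed for DNA synthesis, measured 239, 248, 243 and 250.3 CPM with miR-380-3p and 91.1, 92.7, 72.4 and 72.8 CPM with miR-100-3p. The controls, at 214 to 258 CPM, lay with miR-380-3p, and the log2 difference was 1.57 ± 0.09 (adjusted p = 1.68e-05). ENOSF1 overlaps TYMS on the other strand, and whether the counting used strand is not given in the sources used here. Vimentin (VIM, chr10:17228259-17237593), the intermediate filament of mesenchymal cells, had the smallest adjusted p of all genes tested. It measured 122, 137, 141 and 147 CPM with miR-380-3p and 31.0, 37.1, 36.2 and 33.8 CPM with miR-100-3p. The controls, at 33.8 to 56.1 CPM, overlapped the miR-100-3p libraries and lay far below miR-380-3p, and the log2 difference was 1.98 ± 0.09 (adjusted p = 1.88e-06).

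The neuropeptide gene ADCYAP1, which encodes PACAP, and the neuronal stathmin STMN2, a microtubule regulator of growing axons, were also higher with miR-380-3p. ADCYAP1 was at 7.25, 8.22, 11.7 and 10.4 CPM against 2.03, 1.27, 2.48 and 1.77 CPM, with controls at 1.73 to 2.62 CPM (2.32 ± 0.22, adjusted p = 0.00018). STMN2 was at 392, 448, 548 and 602 CPM against 175, 216, 247 and 183 CPM, with controls at 208 to 230.0 CPM (1.27 ± 0.14, adjusted p = 0.000484). In both, the miR-100-3p libraries lay at the control level. LMO3, a LIM-only cofactor known as a neuroblastoma oncogene, was at 37.4, 33.2, 37.5 and 41.6 CPM with miR-380-3p and 10.9, 14.5, 13.0 and 7.76 CPM with miR-100-3p. Its controls, at 16.6 to 22.2 CPM, lay between the groups (1.71 ± 0.16, adjusted p = 0.000184). The collagen gene COL6A6 went the other way, at 115, 90.0, 96.4 and 94.7 CPM against 261, 291, 334 and 275 CPM, again with the controls between, at 146 to 156 CPM (-1.56 ± 0.10, adjusted p = 2.5e-05).

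MYCN (chr2:15940564-15947007), the amplified transcription factor that drives this line, was lower with miR-380-3p. Its libraries measured 3718, 4383, 3729.6 and 4233 CPM with miR-380-3p and 5933, 6013, 6715 and 6888 CPM with miR-100-3p. The controls, at 4781 to 5216 CPM, lay between the groups without touching either. The log2 difference was -0.68 ± 0.09 (adjusted p = 0.000892), and neither motif occurs in its UTR. Of 25 tested genes of the MYCN network, MYCN was the only one called lower, and ODC1, DKC1 and MDM2 were higher. These counts stand beside 6.02% lower and 5.31% higher among all genes tested. MDM2 lost its call with any 1 library left out but miR-380-3p replicate 2 or miR-100-3p replicate 3. Ornithine decarboxylase ODC1 was at 799 to 868 CPM against 577 to 672 CPM (0.39 ± 0.07, adjusted p = 0.00545), and the telomerase component DKC1 at 193 to 216 CPM against 156 to 171 CPM (0.35 ± 0.07, adjusted p = 0.00789). ODC1 and DKC1 are regarded as MYC targets, and both differed in the direction opposite to MYCN. The median of the list was 0.02, against -0.01 over all genes tested.

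REST, the repressor of neuronal genes, was at 7.17, 5.50, 6.09 and 5.72 CPM with miR-380-3p and 2.48, 2.19, 2.13 and 1.72 CPM with miR-100-3p. The controls, at 4.09 to 6.48 CPM, lay with miR-380-3p (1.52 ± 0.17, adjusted p = 0.000484). It carries a miR-380-3p site and none for miR-100-3p, so the site and the difference point in opposite directions. RTL1, a retrotransposon-derived gene of the imprinted locus that holds the miR-380 hairpin, has neither motif in its UTR or coding sequence. It was at 118, 119, 107 and 97.6 CPM with miR-380-3p and 234, 258, 259.7 and 247 CPM with miR-100-3p. The controls were at 246 to 275 CPM (-1.18 ± 0.08, adjusted p = 4.13e-05). DLK1, a Notch-like ligand of the same locus, was at 654 to 1052 CPM against 1128 to 1552 CPM, with controls at 1581 to 1759 CPM (-0.65 ± 0.15, adjusted p = 0.02). The call of DLK1 was lost without miR-380-3p replicate 1 (adjusted p = 0.0601), replicate 3 (0.073) or replicate 4 (0.0545). In the list of genes at microRNA host loci, 3 of 6 tested were lower, RTL1, DLK1 and the phosphatase UBASH3B, and SORL1 was higher. Among all genes tested 6.02% were lower and 5.31% higher. SORL1 lost its call in 7 of the 8 fits that left out 1 library, all but that without miR-380-3p replicate 2 (largest adjusted p = 0.144), and the count of lower genes was 2 without miR-380-3p replicate 1, 3 or 4. MEG3 did not pass the filter on low counts, and the miR-100 host transcript MIR100HG was not called (0.48 ± 0.28, adjusted p = 0.329).

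Neuroblastoma cells are known to take an adrenergic or a mesenchymal state, and genes of both were examined. The counts of these and the other lists can be read against 5.31% higher and 6.02% lower among all genes tested. Of 21 tested adrenergic genes, 4 were higher and none was lower with miR-380-3p, with a median of 0.04. Among the higher ones SATB1, a chromatin organiser, was at 66.2 to 79.3 CPM against 43.1 to 56.6 CPM (0.53 ± 0.10, adjusted p = 0.00639), while HAND2, GATA3 and the receptor kinase ALK were not called (adjusted p = 0.924, 0.545 and 0.365). Without miR-380-3p replicate 3 the count of higher adrenergic genes was 2, and it stayed at 4 only without miR-100-3p replicate 1. INSM1, another of the higher ones, lost its call with any 1 library left out but miR-100-3p replicate 1. Without miR-380-3p replicate 4 or miR-100-3p replicate 1, 1 adrenergic gene was lower. With the GC slope as a covariate 4 were higher and 3 lower. Of 15 tested genes of catecholamine synthesis and storage, 3 were lower and none higher, and the count of lower genes was 1 without miR-380-3p replicate 3 or without miR-100-3p replicate 1. Without miR-380-3p replicate 2 or miR-100-3p replicate 3, 1 of them was higher. DDC, the decarboxylase that makes dopamine, was at 207 to 253 CPM against 308 to 342 CPM, with controls at 368 to 408 CPM (-0.53 ± 0.08, adjusted p = 0.0018). Tyrosine hydroxylase (TH), the rate-limiting enzyme, was at 106, 192, 101 and 94.8 CPM against 185, 172, 172 and 332 CPM and was not called (-0.81 ± 0.27, adjusted p = 0.0781). Its groups overlap through miR-380-3p replicate 2, without which the adjusted p was 0.0118.

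Of 12 tested mesenchymal genes, 4 were higher and 2 lower with miR-380-3p, with a median of 0.52 against -0.01 over all genes. Besides VIM these were the matrix proteins FN1 and COL1A1 and the membrane-binding ANXA2. FN1 was at 92.3, 76.0, 103 and 99.4 CPM against 55.3, 53.2, 47.1 and 42.1 CPM, with controls at 37.1 to 59.5 CPM (0.90 ± 0.11, adjusted p = 0.000754). ANXA2 was at 56.1 to 65.2 CPM against 30.8 to 38.7 CPM, with controls at 31.4 to 35.6 CPM (0.76 ± 0.09, adjusted p = 0.000675). The hyaluronan receptor CD44 went the other way, at 19.9 to 23.6 CPM against 35.0 to 52.2 CPM, with controls at 12.9 to 19.7 CPM (-0.93 ± 0.13, adjusted p = 0.00132). Without miR-380-3p replicate 4 or miR-100-3p replicate 1 the count of lower mesenchymal genes was 1. COL1A1 is also a fibroblast marker. Of the 6 markers of other cell types that passed the filter, COL1A1 and the smooth muscle actin ACTA2 were higher with miR-380-3p and the keratin KRT19 was lower. The fibroblast marker LUM, which did not pass, had means of 0.350 CPM with miR-380-3p and 0.119 CPM with miR-100-3p, and DCN and COL1A2 were at 0 in all 8 libraries. The part of these markers in the mesenchymal values was not tested. In these bulk libraries a change in the cells present and a change in RNA per cell cannot be told apart.

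Neuronal structural genes did not share a direction. The counts below stand beside 5.31% higher and 6.02% lower among all genes tested. Of 23 tested cytoskeleton and outgrowth genes 3 were higher and 1 lower, and the lower count was 3 without miR-100-3p replicate 4. With the GC slope as a covariate 5 were higher and 5 lower. The light neurofilament NEFL was at 109.7 to 126 CPM against 78.3 to 94.1 CPM (0.46 ± 0.08, adjusted p = 0.0044). The heavy neurofilament NEFH was at 639 to 762 CPM against 984 to 1305 CPM (-0.70 ± 0.10, adjusted p = 0.00149). The cadherin and protocadherin list had 7 higher and 3 lower of 22 tested and a median of 0.36. Among the higher ones PCDH7 was at 19.4 to 20.5 CPM against 11.4 to 14.8 CPM (0.65 ± 0.10, adjusted p = 0.00226), which contrasts with PCDH19 above. Without miR-380-3p replicate 3 or miR-100-3p replicate 1 the count of higher cadherins was 4, and without miR-380-3p replicate 1 or miR-100-3p replicate 2 or 3 that of lower ones was 1. Of 23 synapse and vesicle fusion genes 3 were higher (VAMP3, NSF and NAPB) and 2 lower (STX12 and SYT11). NSF has a near-identical copy, and the counting could split reads between them. Of 25 ion channel genes KCNB2, KCNQ5 and SCN9A were higher and KCNJ6 and CACNA2D2 lower, with only 1 lower without miR-380-3p replicate 1, 3 or 4 or miR-100-3p replicate 2 or 3. Of 26 RAB GTPases RAB21, RAB22A and RAB23 were lower and RAB27B was higher. RAB22A lost its call with any 1 library left out, and RAB27B with any left out but miR-380-3p replicate 2. Of 31 axon guidance genes 5 were lower and 3 higher. The semaphorin and VEGF co-receptor NRP1 was at 70.5 to 78.1 CPM against 119 to 143 CPM, with controls at 78.8 to 88.2 CPM (-0.78 ± 0.08, adjusted p = 0.000197). The lower count of that list was 3 without miR-380-3p replicate 1 and the higher count 1 without miR-380-3p replicate 3.

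Growth factor pathways had called members in both directions. In the insulin-like growth factor axis, 3 of 11 tested genes were lower and 1 was higher: besides IGF2, the receptors IGF1R and IGF2R were lower and the binding protein IGFBP5 was higher, at 32.6 to 42.6 CPM against 20.8 to 25.4 CPM (0.65 ± 0.11, adjusted p = 0.0038). IGF1R was at 53.8 to 67.1 CPM against 67.7 to 86.5 CPM (-0.39 ± 0.10, adjusted p = 0.0271). Without miR-100-3p replicate 1 or replicate 2 only IGF2 remained called lower in this list, and IGF1R then had an adjusted p of 0.0807 and 0.0882. The call of IGF1R was also lost without miR-380-3p replicate 2 (adjusted p = 0.0506), replicate 3 (0.0969) or replicate 4 (0.079). In the TGF-beta and BMP list, 4 of 29 were lower and 1 higher, the latter lost without miR-380-3p replicate 1 or 3 or miR-100-3p replicate 1. The ligand TGFB3 was at 3.26 to 4.43 CPM against 7.36 to 8.55 CPM (-1.09 ± 0.15, adjusted p = 0.00111), beside the receptor TGFBR1 given above. Of 29 Wnt and Notch genes 6 were lower and 3 higher, and without miR-380-3p replicate 3 these counts were 2 and 1. The higher count was also 1 without miR-380-3p replicate 4 or miR-100-3p replicate 1 or 2. The RAS and MAPK list had 3 lower (NRAS, SHC1 and SPRY4) and 1 higher (ETV5) of 27, and the lower count was 1 without miR-380-3p replicate 3 or miR-100-3p replicate 2. The PI3K and mTOR list had 1 lower and 2 higher of 27, with none lower without miR-380-3p replicate 2, 3 or 4 or miR-100-3p replicate 1 or 2, and 3 lower without miR-100-3p replicate 4. Only 1 was higher with any library left out but miR-380-3p replicate 2. Of 15 receptor tyrosine kinases 2 were higher (NTRK3 and DDR1) and 1 lower (FGFR2), and only 1 was higher without miR-380-3p replicate 1 or 3 or miR-100-3p replicate 2 or 4. These shares can be read against 5.31% higher and 6.02% lower among all genes.

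Genes of DNA synthesis and division that were called by the test on the 8 libraries were all higher with miR-380-3p. These calls were few, and in the same fit 5.31% of all genes tested were higher and 6.02% lower. Of 37 tested replication genes 4 were higher and none lower, with a median of 0.15, and without miR-380-3p replicate 3 the count was 3. Apart from TYMS, these differences were small: the sliding clamp PCNA was at 261 to 305 CPM against 204 to 222 CPM (0.37 ± 0.07, adjusted p = 0.00671). The mitotic list had 1 of 32 higher, the spindle midzone protein PRC1, at 204 to 223 CPM against 133 to 162 CPM with controls at 191 to 210.0 CPM (0.54 ± 0.07, adjusted p = 0.00121). Without miR-100-3p replicate 3 the mitotic list had 3 higher, and without miR-380-3p replicate 2 it had 1 lower. The repair list had 2 of 28 higher. Cell cycle control had 3 of 22 higher, SKP2, the G1 cyclin CCNE1 and CDK2. CDK2 lost its call with limma-voom and with any 1 library left out but miR-380-3p replicate 4. CCNE1 was at 22.6 to 28.4 CPM against 15.1 to 18.8 CPM with controls at 20.5 to 25.7 CPM (0.52 ± 0.11, adjusted p = 0.0115). For PRC1 and CCNE1 the control range overlapped that of miR-380-3p. With the GC slope as a covariate the higher counts were 12 for replication, 11 for mitosis, 6 for repair and 8 for cell cycle control, and the lower counts 2, 1, 0 and 1. In that fit 10.7% of all genes tested were higher and 11.7% lower.

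Hypoxia and glycolysis genes had 4 lower and none higher of 30 tested, with a median of -0.20. Among all genes tested 6.02% were lower and 5.31% higher. VEGFA, the angiogenic growth factor, was at 77.1, 78.5, 75.6 and 70.1 CPM with miR-380-3p and 126, 127, 128 and 127 CPM with miR-100-3p. The controls, at 97.6 to 116 CPM, lay between the groups (-0.76 ± 0.07, adjusted p = 0.000133). Besides VEGFA and PDK1, the mitophagy receptor BNIP3 and the glycolytic regulator PFKFB4 were lower. PFKFB4 lost its call without miR-380-3p replicate 3 (adjusted p = 0.0551), miR-100-3p replicate 1 (0.051) or replicate 2 (0.0524). Of 26 genes of the unfolded protein and amino acid response 4 were lower and 1 higher, the latter lost when any 1 of miR-380-3p replicates 1 to 3 or miR-100-3p replicates 2 and 3 was left out. The endoplasmic reticulum chaperone HSPA5 was at 356 to 444 CPM against 509 to 640.3 CPM, with controls at 428 to 542 CPM (-0.54 ± 0.10, adjusted p = 0.00545). Nuclear-encoded respiratory chain genes had 4 lower of 40 and none higher, and none was called without miR-380-3p replicate 3.

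The remaining lists differed in their share of calls. None of 50 cytosolic ribosomal protein genes, 29 cholesterol and fatty acid synthesis genes or 13 mitochondrially encoded messengers was called by the edgeR test. At an unadjusted p under 0.05 these lists had 4, 3 and 0 genes, DESeq2 called 1, 0 and 0, and limma-voom none. With the GC slope as a covariate 2, 2 and 0 were called, in a fit with 10.7% of all genes tested higher and 11.7% lower. The microRNA pathway had 1 higher (XPO5, lost with any library left out but miR-100-3p replicate 2) and 1 lower of 26. The lower count was 0 without miR-380-3p replicate 4 or miR-100-3p replicate 2 and 2 without miR-380-3p replicate 2 or miR-100-3p replicate 4, and AGO2 and DICER1 were not called (adjusted p = 0.579 and 0.211). The list of known miR-99/100 5p-arm targets had 2 higher and 1 lower of 19. Its higher count was 1 without miR-380-3p replicate 1 or 3 or miR-100-3p replicate 1, and its lower count 0 to 2 with 1 library left out. The kinase MTOR, the best known of them, was not called (-0.24 ± 0.09, adjusted p = 0.104). The interferon list had 1 of 12 called, IFIT1, at 1.17 to 1.54 CPM against 0.327 to 0.759 CPM with controls at 1.24 to 1.52 CPM (1.59 ± 0.30, adjusted p = 0.00623). Phospholipid flippases had 3 lower of 10 (TMEM30A, ATP8B2 and ATP11A) and ubiquitin and SUMO enzymes 4 lower of 36 (UBR7, SUMO2, CUL5 and UBE2Q1), against 6.02% of all genes, and neither list had a higher member. The BCL2 family had 1 higher (BCL2L13) and 1 lower (HRK) of 15, with none higher without miR-380-3p replicate 2 or 3. REST was the only called gene of 35 chromatin remodelling and Polycomb genes, of which 2 were higher without miR-100-3p replicate 3 and 1 lower without miR-100-3p replicate 1. Without miR-100-3p replicate 2 the counts of lower flippases and lower ubiquitin and SUMO enzymes were 2 and 2. Without miR-380-3p replicate 2 each of these lists had 1 higher member. The ubiquitin and SUMO list also had 1 without miR-100-3p replicate 3.

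**Figure D5:**
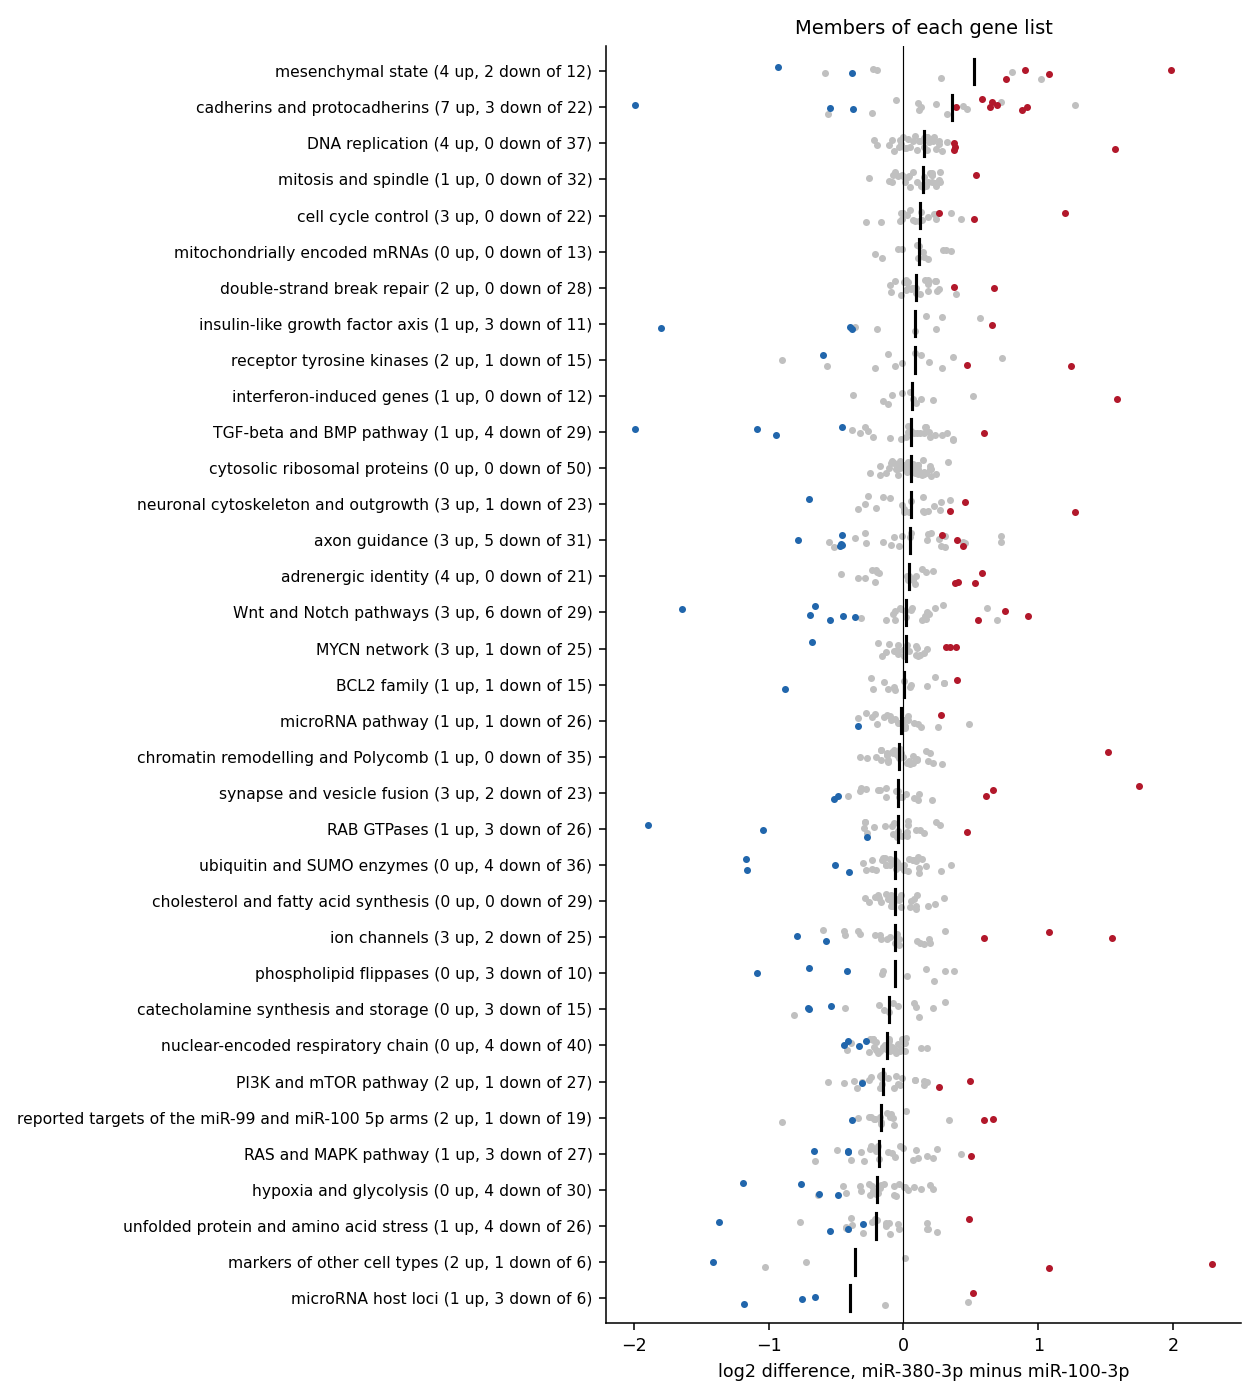
Log2 difference, miR-380-3p minus miR-100-3p (x axis), of each tested member of the gene lists shown (rows, ordered by median), with members called higher in red, called lower in blue and not called in grey; black bars are list medians. The mesenchymal list has the highest median (0.52), and the ribosomal protein and cholesterol lists have no called member.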

How the data were processed

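RNA was sequenced from 8 Kelly libraries, 4 per mimic, with 4 scrambled control libraries used for levels only. Per the submitters' processing notes, reads were aligned to hg19 with STAR, whose version is not given in the sources used here, nor are the counting tool, the annotation or the meaning of the table's filter. The authors deposited expected counts per gene, and 10.0% of the values in these 8 columns are not whole. No per-sample column lacked a sample. Of 30887 rows, 951 hold no count.

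Expected counts were rounded, filtered with filterByExpr (14275 genes kept), scaled by TMM (factors 0.950 to 1.04) and tested with edgeR 4.0.16 (quasi-likelihood, two-sided, 6 residual degrees of freedom, common dispersion 0.0179) on the 8 libraries, under R 4.3.3. Benjamini-Hochberg adjustment ran over all tested genes, and calls are at 0.05. CPM are counts per 1e6 of TMM-scaled library size over the 12 libraries. Log2 differences are miR-380-3p minus miR-100-3p ± SE. On simulated counts for 14162 genes, the test recovered 100% of genes changed by log2 1 and 48% of those changed by log2 0.5, with 1.33% false calls. The simulation gave every gene the common dispersion and had no GC slope, and the changed genes had a mean CPM of at least 5. These rates therefore need not hold for genes of lower level or for the real libraries. Totals of 11477481 to 21120611 counts and a 13.4% coefficient of variation set the precision. No 2 libraries of a group agreed within sampling noise.

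Sites were searched in the longest 3′ UTR (at least 50 bases) per gene of the GENCODE v29 annotation (GRCh38), a build other than the authors' hg19. A UTR was found for 12253 tested genes. Site types were 8-base, 7-base (bases 2 to 8), 6-base followed by A, and 6-base.

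Named genes are the 15 largest called differences in each direction without overlap and with a mean log2 CPM not under 2, the 8 called genes of smallest p per site class, up to 4 called members of each gene list, and a fixed set of background genes. Some are left out for length, and a few genes and 1 gene list are not reported here. Other genes are named where a count is spelled out. The members, lists and rules were chosen with earlier results of these data known. Of the tested genes, 12173 carry their current symbol and 78 the symbol of another gene.

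Alternatives were DESeq2 1.42.0, limma-voom 3.58.1, other scalings and filters, a replicate block, more libraries in the fit, covariates for library code and GC slope, each library left out, and other site and UTR definitions.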

Additional observations from a re-analysis of the deposited data

Results flagged for a closer look

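Of the named genes, 144 were examined for a library that stands apart from the other 3 of its group. Among 288 groups of 4, 12 had such a library by Dixon's 95% criterion, where chance flags about 1 in 20 groups. In miR-380-3p replicate 2 the level was low for SCN9A (8.50 CPM, others 13.9 to 14.8), MDM2 (120.0 CPM, others 141 to 146) and SPATA18 (7.79 CPM, others 10.8 to 11.1), and high for TH (192 CPM, others 94.8 to 106). In miR-380-3p replicate 1 it was low for NEFM (170.0 CPM, others up to 207) and high for NTRK3 (1.52 CPM, others 1.05 to 1.11). Replicate 3 was high for EFNA5 (33.2 CPM, others 30.2 to 30.6) and replicate 4 low for LBH (5.95 CPM, others up to 7.01). In the miR-100-3p group, replicate 4 was low for RAB27B (8.59 CPM, others 11.1 to 11.5) and high for TH (332 CPM, others 172 to 185). Replicate 3 was low for ASNS (127 CPM, others 130.0 to 131) and high for COX7B (171 CPM, others 149 to 152). In TH, the high library of each group is the one with the steepest GC slope of that group.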

How the results depend on the processing

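No named gene called with the 8 libraries was called in the opposite direction under an alternative. The sign could change for genes not called, as for HAND2 (-0.06 to 0.15). Lower calls were the more numerous with the 8 libraries (860 and 758). With upper quartile scaling, higher calls outnumbered lower ones (845 and 775). So they did with all 28 libraries (1383 and 1234), the 24 mimic libraries (1231 and 1116) and without miR-100-3p replicate 2 (530 and 504). Of 133 named genes called, 95 were called under every alternative and 38 lost the call at least once. Among the named genes not called, NEFM, DCX, MTOR and TH gained a call under at least 1 alternative. Calls numbered 1988 with DESeq2 and 1652 with limma-voom, sharing 1586 and 1583 with the 1618. Counts moved as follows. With a mean CPM of at least 5, 31 genes were at least 2-fold higher and 68 at least 2-fold lower with miR-380-3p. With the GC slope as a covariate, 1527 were higher, 1665 lower and 268 of those with a miR-100-3p site lower with miR-100-3p, and all 1618 calls were kept. Fitting all 28 libraries gave 1383 higher and 250 with a miR-100-3p site, and the 24 mimic libraries gave 1231 higher. Sites of 6 bases gave 513 of 4840 genes lower with miR-380-3p and 430 of 4789 lower with miR-100-3p, and sites of 8 bases gave 136 of 575 and 51 of 247. With the replicate number as a block, 324 were higher, 403 lower, 162 with a miR-380-3p site lower with miR-380-3p and 82 with a miR-100-3p site lower with miR-100-3p. Same-numbered libraries did not deviate together (correlations 0.22, -0.27, -0.07 and -0.27), not every library correlated best with its own number, and the block took the calls to 727. Leaving out 1 library gave 388 to 739 higher, 454 to 799 lower, 83 to 126 at least 2-fold higher, 97 to 141 at least 2-fold lower, 177 to 302 with a miR-380-3p site and 104 to 167 with a miR-100-3p site. The lowest counts came without miR-380-3p replicate 3. Without its replicate 4, 503 were higher. Without miR-100-3p replicate 1, 504 were higher, and without replicate 2, 504 were lower and 184 had a miR-380-3p site. Genes with a log2 difference near 0.5 were often missed in the simulation, and can be missed at this depth and number of libraries.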
